A study of Mus musculus with 34 samples.

Results

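The genes described here are the Wnt ligands, their Frizzled and LRP receptors, the R-spondins, the secreted and intracellular inhibitors of the pathway and its LEF/TCF transcription factors. They were chosen by symbol: all genes of the array whose symbol starts with Wnt, Fzd, Sfrp or Dkk followed by a digit, or with Nkd, Axin or Rspo, together with Lrp5, Lrp6, Wif1, Frzb, Lef1, Tcf7l1 and Tcf7l2. The rule found 53 genes among the 18194 genes that had a probe set naming 1 gene, and for each the probe set with the highest mean signal was used. Tcf7, which the rule also names, was not analysed here. Fzd10os, the transcript from the strand opposite Fzd10, carries a matching symbol and was kept as a member of its own.

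The samples were thoracic spinal cord of mice with an intact trkB.T1 (WT) and of trkB.T1 knockout mice (KO). trkB.T1 is the truncated form of the neurotrophin receptor TrkB, encoded by Ntrk2. All animals were on a C57BL/6J background of more than 20 backcross generations and were 8 to 12 weeks old. Tissue was taken from animals labelled sham, or 1, 3 or 7 days after a moderate contusion. The WT arrays numbered 4 for sham, 5 for day 1, 4 for day 3 and 4 for day 7, and the KO arrays 4, 4, 5 and 4 in the same order, 34 in all, which the labels call biological replicates. The labels do not say whether the sham animals were operated on. Values are log2 signals, so a difference of 1 is a 2-fold change.

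In canonical Wnt signalling a secreted Wnt protein binds a Frizzled receptor and the co-receptor LRP5 or LRP6, beta-catenin is spared from destruction, and it joins LEF/TCF proteins at target genes. Secreted Frizzled-related proteins, Frzb and Wif1 bind Wnt proteins outside the cell, while several Dickkopf proteins bind the LRP co-receptors. R-spondins strengthen the signal at the membrane. Axin2 and Nkd1 are inhibitors that many cells make in response to the signal itself. Wnt5a and Wnt5b often act through beta-catenin-independent branches, which guide growing axons in the developing spinal cord.

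Of the 53 members, 34 reached a log2 signal of 4 in at least 4 arrays and entered the test: 7 of 19 Wnt ligands, 10 of 12 receptors, 3 of 4 R-spondins, 7 of 10 secreted inhibitors, all 4 intracellular inhibitors and all 3 transcription factors. The other 19 were Wnt1, Wnt2, Wnt2b, Wnt3, Wnt3a, Wnt8a, Wnt8b, Wnt9b, Wnt10a, Wnt10b, Wnt11, Wnt16, Fzd8, Lrp5, Rspo4, Dkk1, Dkk2, Dkk4 and Fzd10os. Wnt1, Wnt2b and Wnt10b stood at 2.17, the lowest value of the whole data set, in all 34 arrays, and Lrp5 lay between 2.170 and 2.173. The highest single value among the 19 was 4.09, for Fzd8. These genes were not detectable by these probe sets at this filter, which does not show that they are absent.

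**Figure D1:**
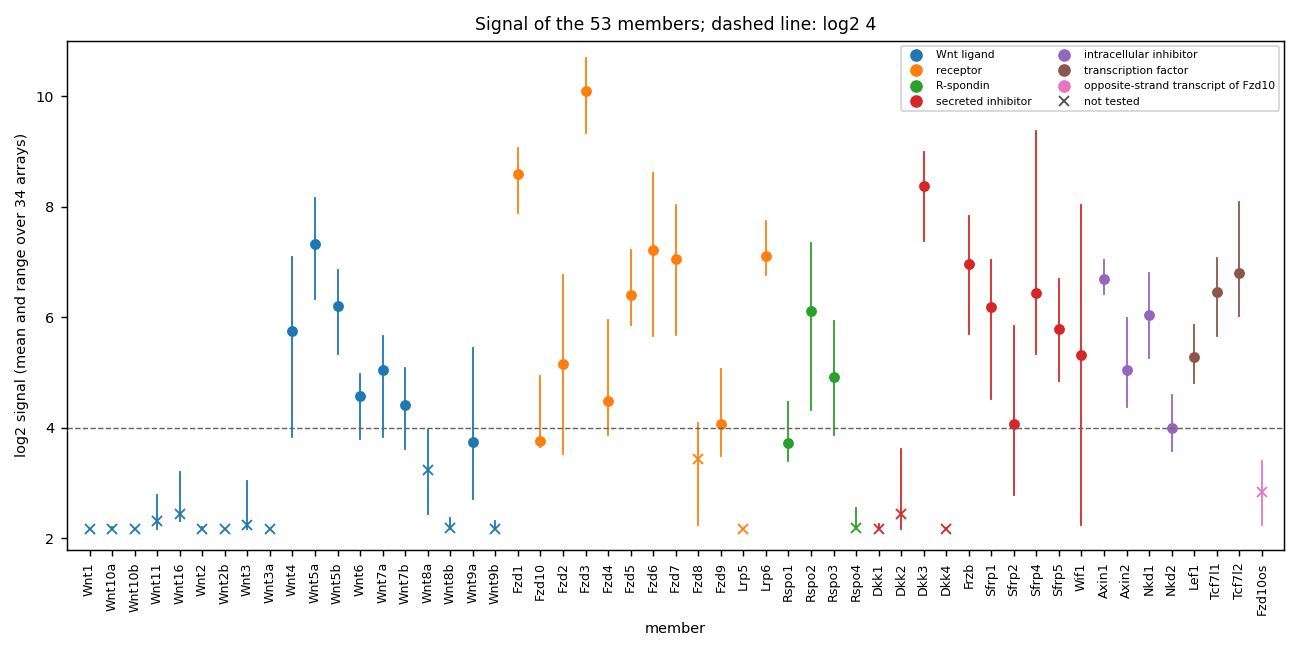
Mean log2 signal (points) and range over 34 arrays (lines) of the 53 members, coloured by role, with crosses for the 19 members that were not tested and a dashed line at log2 4. Signals of different probe sets cannot be ranked against each other, and the plot shows only which members cleared the filter and how far each ranged, Wif1 from 2.25 to 8.04.

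Several features of the arrays touch what follows. For day 1 WT replicates 1 and 2 the source and time fields say day 7 and sham, against their titles, which were followed. Their means of 6 microglial and macrophage markers were 9.35 and 9.21, beside 8.86 to 9.22 in the other day 1 WT arrays. Day 7 WT arrays had means of 11.35 to 11.64 and sham WT arrays 7.56 to 7.77, so both arrays lay near their titled group. Refits that group them by source and time therefore mix arrays of unlike marker means. The library labelled sham KO replicate 2 had an Ntrk2 signal of 9.46, against 3.31 to 4.91 in the other sham KO arrays and 10.19 to 10.67 in sham WT, so its label and its Ntrk2 signal disagree. Neuronal, astrocytic and oligodendrocytic marker lists had means above 11 in every array, as the labelled tissue implies. The mean of 7 fibroblast markers (Col1a1, Col1a2, Dcn, Lum, Pdgfra, Ogn and Islr) was 6.17 in sham WT replicate 1 and 5.96 in sham KO replicate 2, against 8.46 to 9.36 in the other sham arrays. Skeletal muscle markers, foreign to the cord, ranged from 3.09 to 14.01 over the arrays and were highest in day 3 KO replicate 3. Their mean was 3.21 to 9.57 in sham WT, 8.17 to 11.17 in sham KO and 3.26 to 7.0 in day 1 KO, where all 8 passed as lower (limma). The mean of 5 Schwann cell and nerve root markers was 6.24 to 6.74 in sham WT and 6.26 to 8.74 in sham KO. In day 1 WT it was 8.23 to 9.1, and all 5 passed as higher. The part of either tissue in the member differences was not tested. In tissue of mixed cells, fewer cells of a type and less RNA per cell cannot be told apart.

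Injury moved no larger a share of members than of probe sets in general, except at day 7 in WT. At day 1 in WT, 3 members were higher and 13 lower than in sham, 16 of 34, where 52.9% of all 24573 tested probe sets passed the same threshold, 24% as higher and 28.9% as lower (limma, adjusted p under 0.05 over all tested probe sets). At day 3 the counts were 7 higher and 11 lower against a background of 61.8% (26.1% higher and 35.7% lower). At day 7 they were 14 higher and 7 lower against 53.5% (21.8% and 31.7%). In KO at day 1 they were 3 and 12 against 44.6% (20.9% and 23.7%). For KO at day 3 they were 8 and 9 against 64.8% (28.2% and 36.7%), and for KO at day 7 they were 9 and 5 against 47.2% (19.8% and 27.4%). The members' shares, between 41.2% and 61.8%, thus lay near the background of each comparison. The median member difference from sham at day 7 was 0.16 in WT and 0.26 in KO, beside -0.08 and -0.07 over all tested probe sets. Of the 34 members, 14 had their highest WT mean at day 7 and 12 in sham, and in KO these numbers were 18 and 8. The time of the highest mean was the same in both genotypes for 25 of 34.

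**Figure D2:**
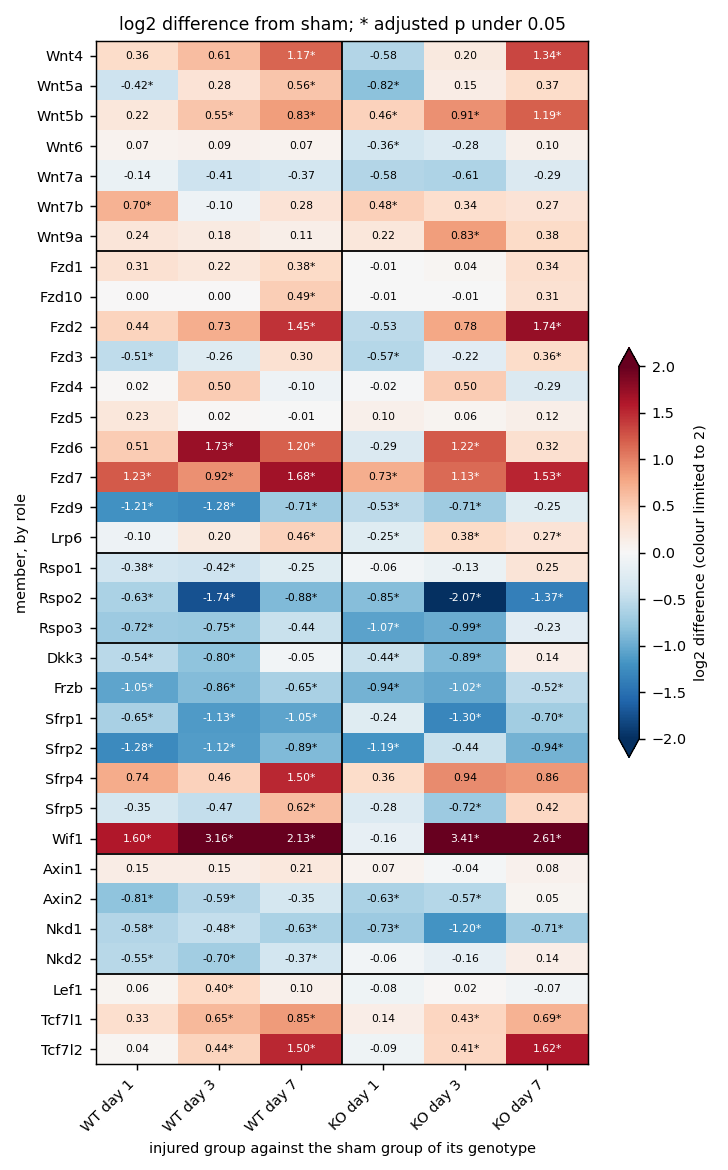
Log2 difference of each injured group from the sham group of its own genotype for the 34 tested members, in blocks by role from Wnt ligands at the top to transcription factors at the bottom. Red is higher and blue lower than sham, an asterisk marks an adjusted p under 0.05, and Wif1 at day 3 holds the largest rises (3.16 in WT and 3.41 in KO) and Rspo2 at day 3 the largest falls (-1.74 and -2.07).

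Among the ligands, Wnt5b rose steadily and Wnt5a fell at first and rose later. Wnt5b is a ligand of the beta-catenin-independent branches. It read 5.85, 5.97, 5.83 and 5.66 in the sham WT arrays and 5.34, 5.39, 5.66 and 5.80 in sham KO. At day 3 it read 6.62, 6.08, 6.64 and 6.18 in WT and 6.16, 6.58, 6.52, 6.69 and 6.32 in KO, and at day 7 it read 6.78, 6.50, 6.61 and 6.75 in WT and 6.60, 6.75, 6.86 and 6.74 in KO. No day 3 or day 7 array overlapped the sham arrays of its genotype. The WT differences from sham at days 3 and 7 were 0.55 ± 0.14 (SE) and 0.83 ± 0.14 (limma, adjusted p = 0.00162 and 2.41e-05), and the KO differences 0.91 ± 0.14 and 1.19 ± 0.14 (adjusted p = 1.49e-06 and 1.13e-07). At day 1 the KO difference of 0.46 passed (adjusted p = 0.0104) and the WT difference of 0.22 did not (adjusted p = 0.19), and the interaction between injury and genotype at day 1 was 0.25 ± 0.20 (adjusted p = 0.998).

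Among the 22 tested members with an upstream window at hand, Wnt5b alone had a match to either of 2 short motifs. Its windows of starts 1 and 3 held 1 match each and are shown for that reason. The window of its start 2 (chr6:119467212-119467461, minus strand) had no match and is not shown. With 3 windows, Wnt5b had more room for a match than members with a single window. RefSeq windows of assembly GRCm38.p6 were held for 35 of the 53 members (42 transcription starts), and the 250 bases before each start were searched on both strands. A TCF/LEF motif, CTTTGAA or CTTTGAT, stood in 7.48% of all 32851 windows and in 3 of the 42 member windows, those of Wnt5b, Wnt11 and Dkk1. An AP-1 motif, TGACTCA or its reverse complement TGAGTCA, stood in 4.46% of all windows and in 1 member window, that of Wnt5b. The window of Wnt5b start 1 (chr6:119544348-119544597, minus strand) has the AP-1 letters in capitals, beginning 191 bases before the start, and the window of its start 3 (chr6:119449387-119449636, minus strand) has the TCF/LEF letters in capitals, beginning 71 bases before it. Axin2, a widely used reporter of canonical signalling (chr11:108920099-108920348, plus strand), and Wif1, the member that moved most (chr10:121033754-121034003, plus strand), had no match in their single windows and are shown beside them. A match is a run of letters and not a shown binding site.
Wnt5b start 1: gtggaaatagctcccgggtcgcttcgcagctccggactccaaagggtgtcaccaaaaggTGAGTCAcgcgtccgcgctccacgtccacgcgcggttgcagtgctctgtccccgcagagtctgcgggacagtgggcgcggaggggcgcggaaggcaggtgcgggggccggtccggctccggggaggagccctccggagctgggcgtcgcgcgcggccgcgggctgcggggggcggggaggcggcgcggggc
Wnt5b start 3: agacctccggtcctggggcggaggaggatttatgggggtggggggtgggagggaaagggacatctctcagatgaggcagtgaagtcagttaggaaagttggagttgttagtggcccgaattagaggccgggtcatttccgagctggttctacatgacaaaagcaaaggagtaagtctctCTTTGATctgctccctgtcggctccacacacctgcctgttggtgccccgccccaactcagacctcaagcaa
Axin2: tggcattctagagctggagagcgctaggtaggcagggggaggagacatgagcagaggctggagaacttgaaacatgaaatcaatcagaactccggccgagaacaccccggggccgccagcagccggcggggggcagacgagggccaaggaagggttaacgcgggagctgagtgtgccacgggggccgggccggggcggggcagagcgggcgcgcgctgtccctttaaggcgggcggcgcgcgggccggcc
Wif1: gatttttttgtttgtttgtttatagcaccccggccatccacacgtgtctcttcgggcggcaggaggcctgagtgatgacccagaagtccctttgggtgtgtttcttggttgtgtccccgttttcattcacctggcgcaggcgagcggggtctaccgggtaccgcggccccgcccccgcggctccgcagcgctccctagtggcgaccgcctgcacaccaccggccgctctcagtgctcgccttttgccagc

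Wnt5a, the sister ligand best known for repelling corticospinal axons, read 7.18, 7.53, 7.09 and 7.02 in sham WT and 7.27, 7.17, 7.69 and 7.61 in sham KO. One day after injury it read 6.33, 7.07, 7.05, 6.64 and 6.82 in WT and 6.36, 6.79, 6.63 and 6.66 in KO. The KO arrays of day 1 lay below all sham KO arrays, while in WT the groups overlapped. The day 1 differences were -0.42 ± 0.16 in WT (limma, adjusted p = 0.0293) and -0.82 ± 0.17 in KO (adjusted p = 0.000309). Between day 1 and day 3 Wnt5a rose by 0.71 ± 0.16 in WT (adjusted p = 0.00169) and 0.97 ± 0.16 in KO (adjusted p = 2.04e-05), and at day 7 it was above sham in WT (0.56 ± 0.17, adjusted p = 0.00679) and not past the threshold in KO (0.37, adjusted p = 0.0743). A second Wnt5a probe set gave 0.03 in WT (adjusted p = 0.9) and -0.67 in KO (adjusted p = 0.00172) at day 1, so the early fall in WT rests on 1 of 2 probe sets. The second probe set was higher in WT already at day 3 (0.59, adjusted p = 0.00285), and at day 7 it passed in both genotypes (0.58 in WT, adjusted p = 0.00431, and 0.47 in KO, adjusted p = 0.0199).

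Wnt4 was highest at day 7. In WT it rose by 1.17 ± 0.44 over sham (limma, adjusted p = 0.0267), from 5.14 ± 1.01 to 6.31 ± 0.58 (SD, n = 4 each), and in KO by 1.34 ± 0.44 (adjusted p = 0.0143), from 5.59 ± 0.54 to 6.93 ± 0.11. The WT call was lost without day 7 WT replicate 1 (1.05, adjusted p = 0.0724), without day 7 WT replicate 4 (0.97, adjusted p = 0.0939), without sham WT replicate 1 (1.14, adjusted p = 0.0541) and without sham WT replicate 2 (0.74, adjusted p = 0.165). The KO call was lost without the library labelled sham KO replicate 2 (1.09, adjusted p = 0.0641). A second Wnt4 probe set gave 0.39 in WT (adjusted p = 0.114) and 0.96 in KO (adjusted p = 0.000423).

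Wnt7b, a canonical ligand of the developing nervous system and its vessels, was higher at day 1. It rose by 0.70 ± 0.16 in WT (limma, adjusted p = 0.000492), where day 1 arrays read 4.78 to 5.07 and sham arrays 3.85 to 4.40, and by 0.48 ± 0.16 in KO (adjusted p = 0.0188). By day 3 the WT signal had fallen again by 0.80 ± 0.16 (adjusted p = 0.000308). The KO call was lost without sham KO replicate 3 (0.32, adjusted p = 0.112) and without day 1 KO replicate 2 (0.36, adjusted p = 0.0911). Wnt9a was higher in KO at day 3 (0.83 ± 0.30, adjusted p = 0.0171), a call lost without day 3 KO replicate 3 (0.56, adjusted p = 0.084) and without the library labelled sham KO replicate 2 (0.74, adjusted p = 0.0556). Its signal reached log2 4 in only 7 of 34 arrays. Wnt6 was lower in KO at day 1 (-0.36, adjusted p = 0.0291), but 18 of 34 arrays shared the value 4.53 exactly, and such arrays cannot be ordered. Wnt7a passed no injury comparison, with differences from sham between -0.61 and -0.14.

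Of the receptors, Fzd7, Fzd6 and Fzd2 rose, Fzd9 fell, and Fzd3 dipped and recovered. Fzd7 is a Frizzled found on many progenitor cells. It read 5.68, 5.98, 6.53 and 6.06 in sham WT and 6.56, 5.70, 6.26 and 6.26 in sham KO. It read 7.57, 7.24, 7.26, 7.48 and 6.92 at day 1 and 7.87, 7.34, 7.72 and 8.04 at day 7 in WT, and 7.16, 6.85, 6.91 and 6.79 at day 1 and 7.80, 7.80, 7.58 and 7.71 at day 7 in KO. Every day 1 and day 7 array was above all sham arrays of its genotype. The same did not hold at day 3 in WT, where replicate 2 lay within the sham range. Without that array the Fzd7 step from day 3 to day 7 in WT was 0.48, beside 0.75 with it. The rise over sham in WT at days 1, 3 and 7 was 1.23 ± 0.21, 0.92 ± 0.23 and 1.68 ± 0.23 (limma, adjusted p = 2.84e-05, 0.000864 and 6.19e-07), a 3.20-fold change at day 7. In KO it was 0.73 ± 0.23 (adjusted p = 0.01), 1.13 ± 0.21 (adjusted p = 4.07e-05) and 1.53 ± 0.23 (adjusted p = 3.15e-06). The day 1 call in KO was lost without the library labelled sham KO replicate 2 (0.57, adjusted p = 0.0559).

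Fzd6, which takes part in planar cell polarity, peaked at day 3. It read 5.66, 6.80, 6.74 and 6.53 in sham WT and 6.75, 6.71, 6.87 and 6.86 in sham KO. At day 3 the WT arrays read 8.25, 8.54, 8.07 and 7.78 and the KO arrays 8.01, 7.99, 8.14, 8.61 and 7.36, with no overlap with sham in either genotype. At day 7 the WT arrays read 7.81, 6.77, 7.67 and 8.26 and the KO arrays 7.21, 6.94, 7.20 and 7.14. The day 3 rise was 1.73 ± 0.26 in WT (limma, adjusted p = 2.01e-06) and 1.22 ± 0.25 in KO (adjusted p = 7.87e-05). At day 7 it was 1.20 ± 0.26 in WT (adjusted p = 0.00033) and 0.32 ± 0.26 in KO (adjusted p = 0.319), and the interaction between injury and genotype, -0.87 ± 0.37, did not pass (adjusted p = 1).

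Fzd2 rose at day 7 by 1.45 ± 0.45 in WT (limma, adjusted p = 0.00756) and by 1.74 ± 0.45 in KO (adjusted p = 0.00218), where the 4 day 7 KO arrays read 6.28 to 6.77 and the sham KO arrays 4.00 to 5.27. Its second probe set was higher already at day 3 (1.40 in WT, adjusted p = 7.22e-05, and 0.78 in KO, adjusted p = 0.00994), when the first was not past the threshold (0.73 and 0.78). The Fzd2 rise in KO between day 1 and day 3, 1.31 ± 0.43 (adjusted p = 0.0127), was lost without day 1 KO replicate 2 (1.12, adjusted p = 0.0532) and without day 1 KO replicate 3 (1.09, adjusted p = 0.0588).

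Fzd9 fell within 1 day. It read 4.98, 4.99, 4.71 and 5.07 in sham WT and 4.44, 4.36, 4.44 and 4.38 in sham KO. At day 1 it read 3.95, 3.63, 3.91, 3.66 and 3.49 in WT and 3.83, 3.82, 4.20 and 3.67 in KO, and at day 3 3.83, 3.57, 3.57 and 3.65 in WT and 3.49, 3.87, 3.80, 3.67 and 3.65 in KO. By day 7 the arrays read 4.25, 4.32, 4.34 and 4.00 in WT and 4.20, 4.03, 4.08 and 4.32 in KO. Injured and sham arrays did not overlap at any time in either genotype. The differences from sham were -1.21 ± 0.11, -1.28 ± 0.11 and -0.71 ± 0.11 at days 1, 3 and 7 in WT (limma, adjusted p = 1.98e-10, 1.14e-10 and 6.53e-06). In KO they were -0.53 ± 0.11, -0.71 ± 0.11 and -0.25 ± 0.11 (adjusted p = 0.000395, 1.18e-06 and 0.0684). The day 1 and day 3 values lie near or under log2 4, the level of the filter.

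Fzd3, required for the growth and guidance of many central axons, was lower at day 1 in both genotypes (-0.51 ± 0.14 in WT, limma adjusted p = 0.00327, and -0.57 ± 0.15 in KO, adjusted p = 0.0026). It rose again between day 3 and day 7 by 0.56 ± 0.15 in WT (adjusted p = 0.00709) and 0.58 ± 0.14 in KO (adjusted p = 0.00282). At day 7 it read 10.50 to 10.68 in WT and 10.50 to 10.65 in KO, above all sham arrays (10.18 to 10.37 and 10.12 to 10.26). The day 7 difference passed in KO (0.36, adjusted p = 0.0423) and not in WT (0.30, adjusted p = 0.0869), and the KO call was lost without any 1 of its 8 arrays, at 0.33 to 0.39 (adjusted p from 0.0511 to 0.0994). A second Fzd3 probe set gave 0.12 and 0.18 at day 1 and was higher at day 3 (0.47, adjusted p = 0.0204, and 0.54, adjusted p = 0.00502). From day 3 to day 7 it changed by -0.20 and -0.29 (adjusted p = 0.448 and 0.173), so the dip and the recovery rest on 1 of 2 probe sets.

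Lrp6, the co-receptor, moved little but with small spread. It read 7.00, 6.91, 6.91 and 6.89 in sham WT and 7.35, 7.23, 7.35 and 7.61 at day 7, a rise of 0.46 ± 0.10 (limma, adjusted p = 0.000274). In KO it read 7.05, 6.91, 7.15 and 7.08 in sham, 6.84, 6.79, 6.79 and 6.77 at day 1, 7.37, 7.26, 7.73, 7.55 and 7.21 at day 3, and 7.24, 7.33, 7.43 and 7.26 at day 7. None of the injured KO groups overlapped with sham. The KO differences were -0.25 ± 0.10 (adjusted p = 0.037), 0.38 ± 0.09 (adjusted p = 0.000735) and 0.27 ± 0.10 (adjusted p = 0.0254). Its second probe set gave -0.43, -0.12 and 0.04 in KO (adjusted p = 0.00609, 0.394 and 0.82) and 0.37 in WT at day 7 (adjusted p = 0.0129). The KO fall at day 1 and the WT rise at day 7 were thus read by both probe sets. Fzd1 and Fzd10 passed in WT at day 7 (0.38 and 0.49, adjusted p = 0.0297 and 0.0152), though Fzd10 stood at 3.66 in 28 of 34 arrays. Fzd10 reached log2 4 in only 4 arrays, the fewest the filter allows. It entered the test through its few high arrays, so its call cannot be told apart from the filter. Fzd5 passed no comparison with sham. Fzd4 passed none on its member probe set (0.50 in WT at day 3, adjusted p = 0.0806), while its second probe set was higher in WT at day 3 (0.62, adjusted p = 0.0345).

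All 3 tested R-spondins were lower than sham in WT at days 1 and 3, and 2 of them, Rspo2 and Rspo3, in KO. At day 7 only Rspo2 was lower, in both genotypes. Rspo2, the R-spondin known from motor neurons at the neuromuscular junction, read 7.09, 7.00, 6.91 and 7.06 in sham WT and 7.04, 7.14, 7.34 and 7.03 in sham KO. A day after injury it read 6.27, 5.77, 6.87, 6.46 and 6.55 in WT and 5.76, 6.01, 6.75 and 6.62 in KO. The arrays of day 3 read 5.85, 4.33, 5.38 and 5.53 in WT and 4.96, 5.04, 5.29, 4.33 and 5.74 in KO, and at day 7 6.21, 6.14, 6.18 and 6.03 in WT and 6.21, 5.74, 5.42 and 5.69 in KO. All injured arrays lay below all sham arrays. The day 3 difference was -1.74 ± 0.27 in WT (limma, adjusted p = 3.47e-06) and -2.07 ± 0.26 in KO (adjusted p = 6.95e-08), a 4.20-fold lower signal in KO. At day 7 it was -0.88 ± 0.27 (adjusted p = 0.00763) and -1.37 ± 0.27 (adjusted p = 0.000153).

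The day 1 fall of Rspo2 was less certain. In WT it was -0.63 ± 0.26 (limma, adjusted p = 0.0387) and was lost without any 1 of 7 of the 9 arrays (day 1 WT replicates 1, 2 and 4 and sham WT replicates 1 to 4), at -0.67 to -0.48 (adjusted p from 0.0514 to 0.125). Grouping the 2 arrays with conflicting fields by source and time left -0.14 (adjusted p = 0.759), and leaving both out left -0.39 (adjusted p = 0.269). In KO it was -0.85 ± 0.27 (adjusted p = 0.0119), lost without day 1 KO replicate 1 (-0.68, adjusted p = 0.0633).

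Rspo3, an endothelial and mesenchymal R-spondin, fell by 0.72 ± 0.23 at day 1 and by 0.75 ± 0.24 at day 3 in WT (limma, adjusted p = 0.00935 and 0.00849), calls lost without sham WT replicate 3 (-0.54, adjusted p = 0.0605, and -0.56, adjusted p = 0.0516). In KO the falls were 1.07 ± 0.24 and 0.99 ± 0.23 (adjusted p = 0.000722 and 0.000399). At day 7 Rspo3 did not pass in WT (-0.44) or KO (-0.23). Rspo1 passed in WT at day 1 (-0.38, adjusted p = 0.00652) and day 3 (-0.42, adjusted p = 0.00359), and in no KO comparison with sham (-0.06, -0.13 and 0.25). The value 3.64 was shared by 15 of 34 Rspo1 arrays, which cannot be ordered. Rspo1 reached log2 4 in only 5 of 34 arrays and lay between 3.41 and 4.47. Its sham WT mean leaned on 1 array: without sham WT replicate 4 the KO minus WT difference in sham went from -0.30 to -0.14. The Rspo1 falls in WT were not recomputed without that array, so the fall of all 3 R-spondins is less certain for Rspo1. Beside these falls the mean of 8 neuronal markers went from 13.09 to 13.20 in the sham arrays to 12.26 to 12.83, 11.41 to 12.54 and 12.37 to 12.58 on days 1, 3 and 7. At day 3 all 8 neuronal markers were lower in both genotypes, and so were all 6 tested oligodendrocyte markers. Of 6 tested endothelial markers, 5 were higher in WT and 4 in KO at day 3, and of 7 fibroblast markers 3 and 5. The part of any of these cell types in the R-spondin falls was not tested.

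The secreted inhibitors went in opposite directions, with Wif1 up and Sfrp1, Sfrp2 and Frzb down. Wif1, Wnt inhibitory factor 1, read 2.25, 4.82, 3.63 and 4.14 in sham WT and 3.59, 3.01, 4.17 and 3.72 in sham KO. One day after injury it read 4.77, 5.82, 5.89, 4.82 and 5.23 in WT and 4.42, 3.59, 2.25 and 3.59 in KO. It peaked at day 3 with 6.73, 6.18, 7.89 and 6.69 in WT and 6.67, 6.25, 8.04, 7.64 and 6.59 in KO, and at day 7 it read 6.13, 4.94, 6.39 and 5.89 in WT and 6.36, 6.26, 6.43 and 5.88 in KO. The day 3 and day 7 arrays did not overlap with sham in either genotype.

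The Wif1 rise at day 3 was 3.16 ± 0.48 in WT (limma, adjusted p = 2.45e-06) and 3.41 ± 0.45 in KO (adjusted p = 2.15e-07), an 8.94-fold and a 10.6-fold change. At day 7 it was 2.13 ± 0.48 (adjusted p = 0.000503) and 2.61 ± 0.48 (adjusted p = 6.42e-05). At day 1 it was 1.60 ± 0.45 in WT (adjusted p = 0.00434) and -0.16 ± 0.48 in KO (adjusted p = 0.812). With the 2 conflicting arrays grouped by source and time the WT value at day 1 was 1.18 (adjusted p = 0.12). Sham WT replicate 1 and day 1 KO replicate 3 both stood at 2.25, the lowest Wif1 value of the data set, and 5 of the 8 sham arrays lay below log2 4.

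**Figure D3:**
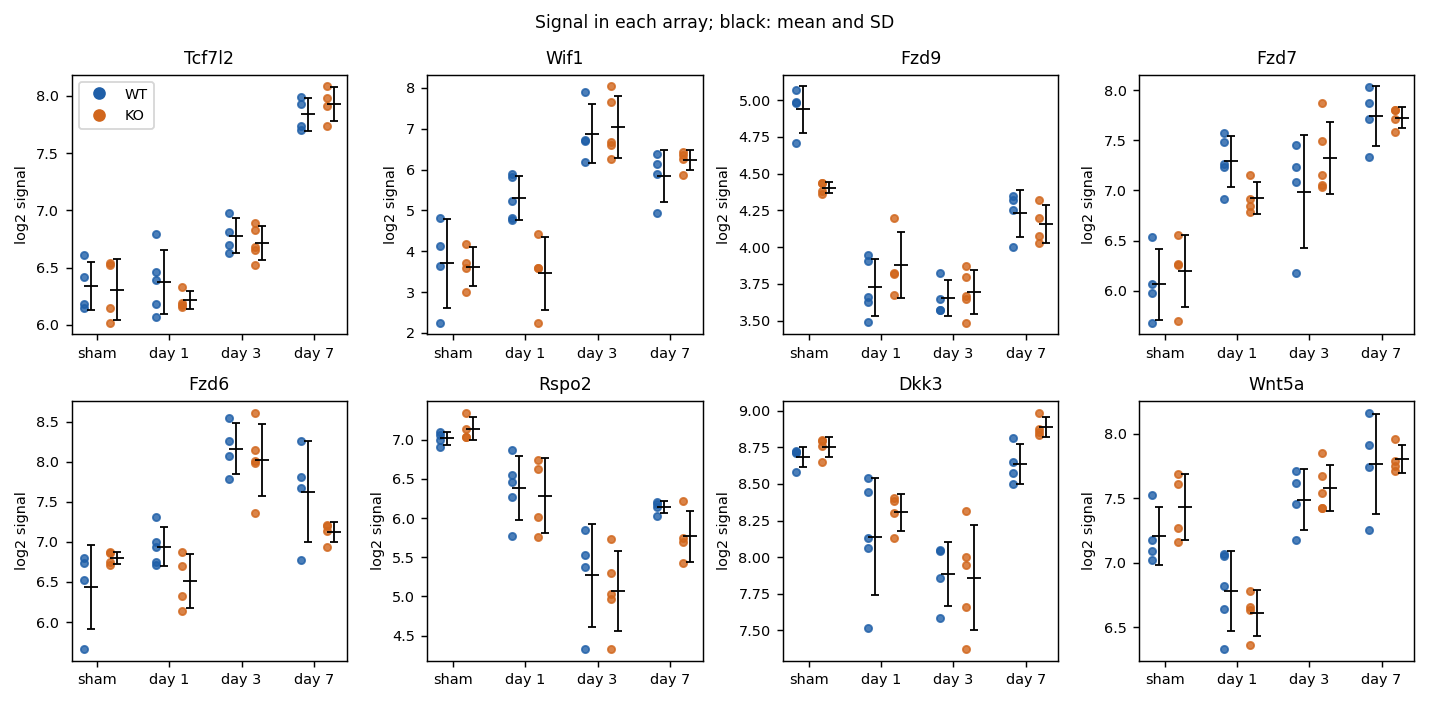
Log2 signal of 8 members in every array, with sham, day 1, day 3 and day 7 along the horizontal axis, WT in blue and KO in orange, and mean and SD in black. Tcf7l2 climbs to 7.70 to 8.08 at day 7, Wif1 peaks at day 3, and Fzd9 and Rspo2 lie below sham in every injured array.

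Wif1, Fzd2 and Sfrp4 were among the members whose extreme arrays in a group most often matched those of the fibroblast markers. In 6 of 8 groups the array with the lowest fibroblast marker mean also had the lowest Wif1, and the same count held for Fzd2 and Sfrp4. Over all 34 tested members the count ran from 1 to 6. Rspo1 also had a count of 6, but 15 of its 34 arrays shared 1 value and cannot be ordered, so that count is not a match. The array with the highest marker mean was also the highest in 5 groups for Wif1, in 6 for Fzd2, Sfrp4 and Lrp6, and in 1 for Rspo1. Fzd7 shared the lowest array in 5 groups and the highest array in 5. Sham WT replicate 1, with a marker mean of 6.17, had Wif1 at 2.25. Sham KO replicate 2, at 5.96, had Wif1 at 3.01. Day 1 KO replicate 3, at 7.45, had Wif1 at 2.25. The marker mean was 8.70 to 9.60 in day 1 WT, 7.45 to 8.86 in day 1 KO, 9.33 to 11.24 over both genotypes at day 3 and 9.67 to 11.27 at day 7. Of the 7 markers, 3, 3 and 7 were higher in WT on days 1, 3 and 7, and 0, 5 and 6 in KO (limma). The fibroblast list was highest at day 7 (means of 10.64 in WT and 10.46 in KO), while Wif1 peaked at day 3. The pericyte and smooth muscle list also peaked at day 3 (9.03 and 9.10, beside 8.28 and 7.98 at day 7). So did the endothelial list (8.3 and 8.2, beside 6.9 and 6.7). No list but that of fibroblasts was ranked by array, and the part of any of these cell types in the rises was not tested.

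**Figure D4:**
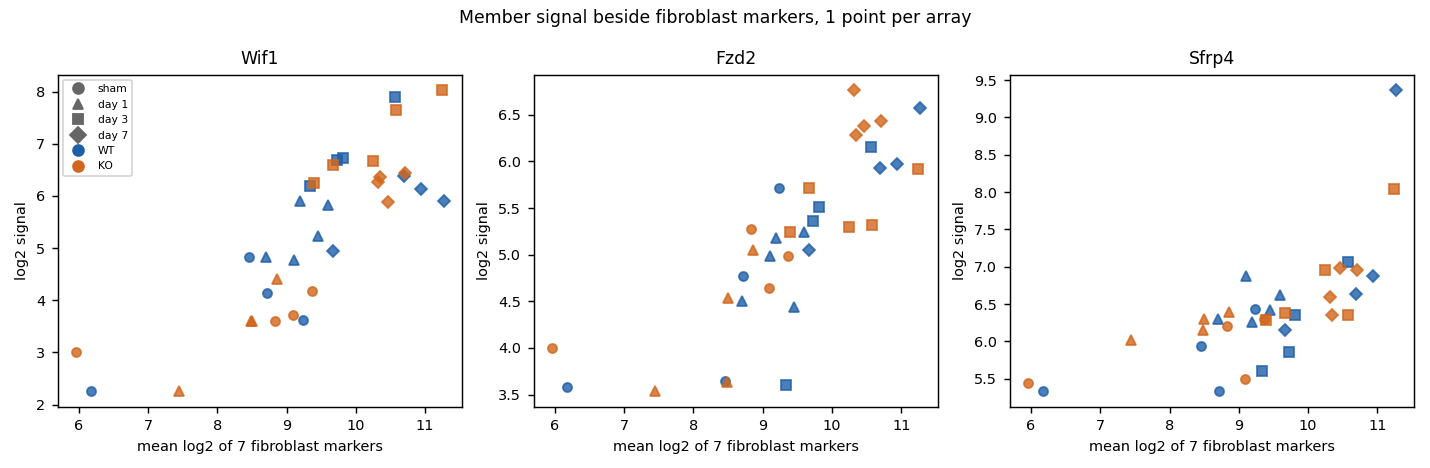
Log2 signal of Wif1, Fzd2 and Sfrp4 in each of 34 arrays (vertical axes) beside the mean log2 signal of 7 fibroblast markers in the same array (horizontal axes), with symbols for time and colours for genotype. The sham arrays with marker means of 5.96 and 6.17 and the day 1 KO array at 7.45 lie at the lower left, and day 7 WT replicate 4, at 11.27, has the highest Sfrp4, 9.37.

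Sfrp4 was higher at day 7 in WT by 1.50 ± 0.46 (limma, adjusted p = 0.00684). The 4 arrays read 6.87, 6.15, 6.63 and 9.37, and without the last, day 7 WT replicate 4, the difference was 0.79 and the call was lost (adjusted p = 0.0645). In KO no comparison of Sfrp4 with sham passed (0.36, 0.94 and 0.86). Sfrp5 was higher at day 7 in WT (0.62 ± 0.24, adjusted p = 0.0311) and lower at day 3 in KO (-0.72 ± 0.23, adjusted p = 0.00714). It rose between day 3 and day 7 in both genotypes, by 1.10 ± 0.24 in WT (adjusted p = 0.00177) and 1.15 ± 0.23 in KO (adjusted p = 0.000545).

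Sfrp1, a secreted Frizzled-related protein made by neural progenitors and astrocytes, read 7.03, 6.77, 6.77 and 6.94 in sham WT and 6.77, 6.89, 6.85 and 6.71 in sham KO. At day 3 it read 5.73, 5.52, 5.92 and 5.80 in WT and 5.59, 6.07, 5.46, 4.52 and 5.86 in KO, and at day 7 6.19, 5.80, 5.96 and 5.38 in WT and 6.17, 5.87, 6.29 and 6.10 in KO. The day 3 and day 7 arrays lay below all sham arrays. The day 3 difference was -1.13 ± 0.21 in WT (limma, adjusted p = 4.54e-05) and -1.30 ± 0.20 in KO (adjusted p = 2.28e-06), and the day 7 difference -1.05 ± 0.21 (adjusted p = 0.000175) and -0.70 ± 0.21 (adjusted p = 0.00831). The other 4 tested Sfrp1 probe sets also passed as lower at day 3 and day 7 in both genotypes, with day 3 differences from -2.21 to -0.27. At day 1 the member probe set passed in WT (-0.65 ± 0.20, adjusted p = 0.00857) and not in KO (-0.24, adjusted p = 0.375). Of the other 4 Sfrp1 probe sets, 3 were lower in KO at day 1 (-0.19, -0.48 and -1.33, adjusted p = 0.0441, 0.0238 and 0.000207) and 1 was not (-0.07, adjusted p = 0.777). The WT call at day 1 was lost with the conflicting arrays grouped by source and time (-0.33, adjusted p = 0.313) or left out (-0.49, adjusted p = 0.0852).

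Frzb, also called Sfrp3, fell in all 6 comparisons. In WT the differences were -1.05 ± 0.20, -0.86 ± 0.21 and -0.65 ± 0.21 at days 1, 3 and 7 (limma, adjusted p = 8.86e-05, 0.000836 and 0.0111), from sham values of 7.40 to 7.73. In KO they were -0.94 ± 0.21, -1.02 ± 0.20 and -0.52 ± 0.21 (adjusted p = 0.000675, 6.19e-05 and 0.0435). The WT day 7 call was lost without day 7 WT replicate 2 (-0.48, adjusted p = 0.0647), and the KO day 7 call without any 1 of day 7 KO replicates 1, 2 and 4 or sham KO replicates 1, 3 and 4, at -0.53 to -0.46 (adjusted p from 0.0634 to 0.107).

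Sfrp2 fell by 1.28 ± 0.33 at day 1 and by 1.12 ± 0.35 at day 3 in WT (limma, adjusted p = 0.00214 and 0.00697), and by 1.19 ± 0.35 at day 1 in KO (adjusted p = 0.00752). At day 3 in KO it did not pass (-0.44), with arrays from 3.28 to 5.85. The day 7 falls, 0.89 in WT (adjusted p = 0.0337) and 0.94 in KO (adjusted p = 0.0281), were each lost on leaving out 1 array. In WT these were day 7 WT replicates 1 to 4 and sham WT replicates 1 and 4, at -0.90 to -0.80 (adjusted p from 0.0535 to 0.0846). In KO they were day 7 KO replicate 3 and sham KO replicates 2 and 4, at -0.92 to -0.89 (adjusted p from 0.0579 to 0.0635).

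Dkk3, an atypical Dickkopf made by neurons, fell and then returned. It read 8.58, 8.72, 8.71 and 8.73 in sham WT and 8.79, 8.80, 8.65 and 8.76 in sham KO. At day 1 it read 8.06, 8.13, 8.54, 7.52 and 8.45 in WT and 8.13, 8.39, 8.41 and 8.30 in KO. The day 3 arrays read 8.05, 7.59, 7.86 and 8.04 in WT and 7.95, 8.01, 7.37, 7.66 and 8.31 in KO, and at day 7 8.82, 8.50, 8.65 and 8.58 in WT and 8.84, 8.87, 8.85 and 8.99 in KO. All day 1 and day 3 arrays lay below sham, and at day 7 the KO arrays lay above it. The differences from sham were -0.54 ± 0.15, -0.80 ± 0.16 and -0.05 ± 0.16 in WT (limma, adjusted p = 0.00427, 0.000117 and 0.826) and -0.44 ± 0.16, -0.89 ± 0.15 and 0.14 ± 0.16 in KO (adjusted p = 0.0276, 1.13e-05 and 0.52). A second Dkk3 probe set gave -0.64, -0.79 and -0.10 in WT and -0.45, -0.83 and 0.18 in KO.

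Of the 4 intracellular inhibitors, Axin2 and Nkd1 fell below sham in both genotypes, Nkd2 passed against sham in WT and not in KO, and Axin1 passed in no comparison. Axin2, a scaffold of the beta-catenin destruction complex and a feedback target of the pathway, fell at day 1 by 0.81 ± 0.17 in WT (limma, adjusted p = 0.000312) and 0.63 ± 0.18 in KO (adjusted p = 0.00603). Sham arrays read 5.17 to 5.98 in WT and 5.13 to 5.53 in KO, and day 1 arrays 4.58 to 4.90 and 4.52 to 5.06, without overlap. At day 3 the falls were 0.59 ± 0.18 (adjusted p = 0.00624) and 0.57 ± 0.17 (adjusted p = 0.00507). At day 7 Axin2 differed from sham by -0.35 in WT (adjusted p = 0.11) and 0.05 in KO (adjusted p = 0.856), and its rise from day 3 passed in KO (0.62 ± 0.17, adjusted p = 0.00868) and not in WT (0.24, adjusted p = 0.376).

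Nkd1, which binds Dishevelled and restrains the signal, read 6.58, 6.47, 6.62 and 6.47 in sham WT and 6.58, 6.49, 6.80 and 6.78 in sham KO. One day after injury it read 5.97, 6.02, 5.89, 5.96 and 5.97 in WT and 5.87, 5.75, 6.09 and 6.01 in KO. The day 3 arrays read 6.22, 6.18, 6.03 and 5.79 in WT and 5.28, 5.56, 5.27, 5.56 and 5.64 in KO, and at day 7 6.21, 5.54, 5.72 and 6.17 in WT and 5.97, 5.84, 5.94 and 6.07 in KO. All injured arrays lay below all sham arrays of either genotype. The falls were 0.58 ± 0.11, 0.48 ± 0.12 and 0.63 ± 0.12 in WT (limma, adjusted p = 0.00013, 0.000988 and 8.39e-05) and 0.73 ± 0.12, 1.20 ± 0.11 and 0.71 ± 0.12 in KO (adjusted p = 1.65e-05, 5.06e-10 and 2.32e-05).

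The probe sets of Nkd1 differed. A second gave -0.37, -0.16 and -0.44 in WT (limma, adjusted p = 0.0566, 0.441 and 0.0304) and -0.28, -0.39 and -0.62 in KO (adjusted p = 0.18, 0.0342 and 0.00409), and another lay between -0.05 and 0.05 throughout. Nkd2, the paralogue of Nkd1, passed as lower in WT at days 1, 3 and 7 (-0.55, -0.70 and -0.37, adjusted p = 7.52e-05, 4.58e-06 and 0.00586) and not in KO (-0.06, -0.16 and 0.14). From day 3 to day 7 Nkd2 rose in both genotypes (0.33 in WT, adjusted p = 0.0361, and 0.30 in KO, adjusted p = 0.0309). Of its 34 values 13 were exactly 3.93, and the interactions of 0.50 to 0.54 did not pass (adjusted p from 0.464 to 0.923). Axin1, the constitutive scaffold, stayed between -0.04 and 0.21 of sham in the 6 comparisons without passing.

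Tcf7l2 and Tcf7l1 rose in both genotypes, most of all Tcf7l2, the member that varied most over the 8 groups (its F statistic exceeded that of 96.7% of tested probe sets). Tcf7l2, also called TCF4, is a factor of the oligodendrocyte lineage and of many other cells. It read 6.18, 6.42, 6.15 and 6.61 in sham WT and 6.54, 6.02, 6.52 and 6.14 in sham KO. At day 1 it read 6.46, 6.39, 6.18, 6.79 and 6.07 in WT and 6.33, 6.16, 6.17 and 6.19 in KO. The day 3 arrays read 6.70, 6.97, 6.82 and 6.63 in WT and 6.68, 6.66, 6.83, 6.89 and 6.52 in KO, and at day 7 7.70, 7.74, 8.00 and 7.93 in WT and 7.98, 7.91, 8.08 and 7.74 in KO. The day 7 arrays of both genotypes lay above every array of any earlier time.

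The Tcf7l2 rise over sham at day 7 was 1.50 ± 0.13 in WT (limma, adjusted p = 2.41e-10) and 1.62 ± 0.13 in KO (adjusted p = 5.47e-11), a 2.83-fold and a 3.07-fold change. A second Tcf7l2 probe set gave 1.47 and 1.36. At day 3 the rise was 0.44 ± 0.13 in WT (adjusted p = 0.00567) and 0.41 ± 0.13 in KO (adjusted p = 0.00625). With arrays centred on their medians these became 0.27 (adjusted p = 0.0733) and 0.24 (adjusted p = 0.0886). Of 5 markers of oligodendrocyte precursors, 2 were higher and 1 lower at day 7 in both genotypes, and their mean was 9.35 to 9.54 at day 7 and 8.67 to 8.99 in sham. Of 6 microglial and macrophage markers, all 6 were higher, with means of 11.27 to 11.64 and 7.15 to 7.77. Of 6 tested oligodendrocyte markers, 0 were higher and 4 lower at day 7 in both genotypes. Among 8 astrocyte markers, 3 were higher and 0 lower at that time in both. The part of any of these cell types in the Tcf7l2 rise was not tested.

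Tcf7l1, usually a repressor of target genes, rose in WT by 0.65 ± 0.15 at day 3 (limma, adjusted p = 0.000459) and 0.85 ± 0.15 at day 7 (adjusted p = 3.09e-05). In KO it rose by 0.43 ± 0.14 (adjusted p = 0.0101) and 0.69 ± 0.15 (adjusted p = 0.000467), and the day 3 call in KO was lost without the library labelled sham KO replicate 2 (0.26, adjusted p = 0.101) and with arrays centred on their medians (0.26, adjusted p = 0.0956). A second Tcf7l1 probe set gave 0.29 in WT at day 3 (adjusted p = 0.00547) and passed in no other comparison with sham. Against sham, Lef1 passed in WT at day 3 alone (0.40 ± 0.12, adjusted p = 0.00417). After centring it was 0.23 (adjusted p = 0.0873), and 12 of 34 Lef1 values were exactly 5.24.

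Between consecutive time points the members turned upward late. From day 1 to day 3, 6 members rose and 2 fell in WT (background 27.1%, 11.7% higher and 15.4% lower), and 8 rose and 4 fell in KO (46.6%, 19.4% and 27.2%). From day 3 to day 7, 9 rose and 0 fell in WT (limma, background 19.2%, 8.64% higher and 10.5% lower). For that step 16 members had an unadjusted p under 0.05 in either direction, a share not computed over all tested probe sets. In KO 14 rose and 2 fell (30.4%, 16.2% and 14.2%). The WT count from day 3 to day 7 was 5 without day 3 WT replicate 2 and also 5 without day 7 WT replicate 1. The background of these refits was not computed. The late risers in both genotypes were led by Tcf7l2 (1.06 ± 0.13 in WT, adjusted p = 1.9e-06, and 1.21 ± 0.13 in KO, adjusted p = 6.41e-08), Sfrp5 and Dkk3 (0.75 ± 0.16, adjusted p = 0.00146, and 1.03 ± 0.15, adjusted p = 1.6e-05). Fzd6 fell by 0.90 ± 0.25 from day 3 to day 7 in KO (adjusted p = 0.00726) and changed by -0.54 in WT (adjusted p = 0.149).

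Several of these steps rested on single arrays. From day 3 to day 7 in WT, Rspo2 (0.87, limma adjusted p = 0.0231) was lost without day 3 WT replicate 2 (0.55, adjusted p = 0.16), day 7 WT replicate 1 (0.84, adjusted p = 0.0522) or day 7 WT replicate 3 (0.85, adjusted p = 0.0514). Fzd7 (0.75, adjusted p = 0.0186) was lost without day 3 WT replicate 2 (0.48, adjusted p = 0.135), day 7 WT replicate 1 (0.71, adjusted p = 0.051) or day 7 WT replicate 4 (0.65, adjusted p = 0.0631). In KO, Fzd4 fell by 0.79 ± 0.24 (adjusted p = 0.0131), a call lost without day 3 KO replicate 3 (-0.65, adjusted p = 0.0534) and not passed by its second probe set (-0.47, adjusted p = 0.132). The Rspo3 rise of 0.76 (adjusted p = 0.0131) was lost without day 3 KO replicate 4 (0.59, adjusted p = 0.0571). The Wnt4 rise of 1.14 (adjusted p = 0.0411) was lost without 8 of its 9 arrays taken 1 at a time (1.08 to 1.18, adjusted p from 0.0555 to 0.0871).

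From day 1 to day 3 Wif1 rose by 1.57 ± 0.45 in WT (limma, adjusted p = 0.0113), lost without day 3 WT replicate 3 (1.23, adjusted p = 0.0609), and by 3.58 ± 0.45 in KO (adjusted p = 3.34e-07). Fzd6 rose by 1.22 ± 0.25 in WT (adjusted p = 0.000443) and 1.51 ± 0.25 in KO (adjusted p = 1.39e-05). Rspo2 fell by 1.11 ± 0.26 and 1.21 ± 0.26 (adjusted p = 0.00187 and 0.000336). In WT the Tcf7l2 step of 0.40 (adjusted p = 0.0196) was lost without day 3 WT replicate 2 (0.34, adjusted p = 0.0672), day 1 WT replicate 3 (0.35, adjusted p = 0.0567) or day 1 WT replicate 5 (0.32, adjusted p = 0.0672). The Lef1 step of 0.34 (adjusted p = 0.0217) was lost without day 3 WT replicate 2 (0.29, adjusted p = 0.068), day 3 WT replicate 3 (0.23, adjusted p = 0.127) or day 1 WT replicate 1 (0.29, adjusted p = 0.0619). In KO the Dkk3 step of -0.45 (adjusted p = 0.0187) was lost without day 3 KO replicate 3 (-0.33, adjusted p = 0.0799), day 3 KO replicate 4 (-0.40, adjusted p = 0.0511) or day 1 KO replicate 3 (-0.41, adjusted p = 0.0533).

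Knockout and wild-type cord were compared at each time, and 1 of 34 members passed, Nkd1 at day 3. The background at day 3 was 0.0366% of probe sets (0.0203% higher and 0.0163% lower, limma). The sham count was 0 beside 0.0529% (0.0366% and 0.0163%), the day 1 count 0 beside 0.549% (0.114% and 0.435%), and the day 7 count 0 beside 0.0407% (0.0163% and 0.0244%). The mean genotype difference over the 4 conditions and the injury by genotype interactions at days 1, 3 and 7 passed for 0 members as well (limma), beside 0.126% (0.0529% higher and 0.0733% lower), 0.0692%, 0% and 0.00407%, the interactions all lower. Without adjustment, p under 0.05 was reached by 4, 2, 3 and 1 members in sham and on days 1, 3 and 7, and by 2 for the mean difference and 5, 4 and 4 for the interactions. The share of all tested probe sets at that unadjusted threshold was not computed. These counts thus cannot be told from a general rate.

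Nkd1 at day 3 read 5.27 to 5.64 in KO and 5.79 to 6.22 in WT, without overlap. The difference was -0.59 ± 0.11 (limma, adjusted p = 0.0407), a 1.51-fold lower signal. The call was lost without day 3 WT replicate 1 (-0.54, adjusted p = 0.107), replicate 2 (-0.55, adjusted p = 0.176) or replicate 3 (-0.60, adjusted p = 0.0672), and without day 3 KO replicate 1 (-0.55, adjusted p = 0.126), replicate 3 (-0.55, adjusted p = 0.159) or replicate 4 (-0.62, adjusted p = 0.0609). Averaged over all Nkd1 probe sets the difference was -0.19 (adjusted p = 0.314), and the second of them gave -0.20. The interaction at day 3 was -0.72 ± 0.17 (adjusted p = 0.445). At day 1 the genotypes differed by -0.03 and at day 7 by 0.05.

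Wif1 at day 1 came next. The 4 KO arrays (2.25 to 4.42) lay below the 5 WT arrays (4.77 to 5.89), a difference of -1.84 ± 0.45 that did not pass (limma, adjusted p = 0.0551). Without day 1 KO replicate 1 it passed (-2.16, adjusted p = 0.0337), and without day 1 KO replicate 3, the array with the lowest fibroblast marker mean of its group, it was -1.44 (adjusted p = 0.274). With array weights it was -2.01 (adjusted p = 0.0113), and with the 2 conflicting day 1 WT arrays left out -1.85 (adjusted p = 0.243). The interaction was -1.76 ± 0.66 (adjusted p = 0.686). The fibroblast marker means lay at 7.45 to 8.86 in day 1 KO and 8.70 to 9.60 in day 1 WT, though 0 of the 7 markers passed between genotypes, and their part in the Wif1 difference was not tested. By day 3 Wif1 differed by 0.16 ± 0.45 between genotypes.

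**Figure D5:**
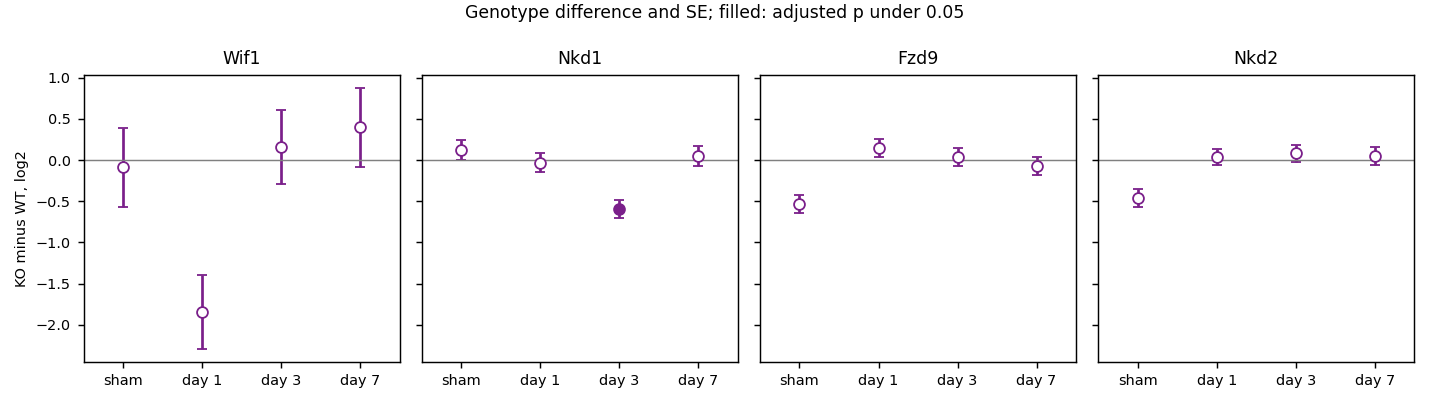
KO minus WT log2 difference with its standard error for Wif1, Nkd1, Fzd9 and Nkd2 in sham and at days 1, 3 and 7 after injury. The filled point, Nkd1 at day 3 (-0.59), is the single member difference with an adjusted p under 0.05, and open points did not pass, among them Wif1 at day 1 (-1.84) and Fzd9 in sham (-0.53).

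In sham, Fzd9 was lower in KO (4.36 to 4.44) than in WT (4.71 to 5.07) without overlap, by 0.53 ± 0.11, which did not pass (limma, adjusted p = 0.0822). It passed without sham WT replicate 3 (-0.61, adjusted p = 0.0314), and without the library labelled sham KO replicate 2 it was -0.52 (adjusted p = 0.145). Its interaction at day 1, 0.68 ± 0.15, had an adjusted p of 0.0987. Nkd2 in sham differed by -0.46 ± 0.11 (adjusted p = 0.253) and Rspo1 by -0.30 (adjusted p = 0.973). The remaining nearest members were Wnt7b (-0.35, adjusted p = 0.502) and Wnt6 (-0.26, adjusted p = 0.574) at day 1, Lrp6 (0.29, adjusted p = 0.358) and Wnt9a (0.71, adjusted p = 0.425) at day 3, and Fzd1 (0.30), Fzd6 (-0.51) and Rspo1 (0.19) at day 7, each with an adjusted p of 1. The Wnt9a value at day 3 was 0.45 without day 3 WT replicate 2 and 0.44 without day 3 KO replicate 3. Over the 4 conditions together the nearest were Fzd1 (0.21 ± 0.07, adjusted p = 0.406), Fzd5 (-0.22 ± 0.09, adjusted p = 0.584) and Nkd1 (-0.11, adjusted p = 0.704).

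A list of 66 other genes of the pathway (Wnt secretion, further receptors, destruction complex, Dishevelled partners, polarity genes and common target genes) gave the setting, and 55 of them were tested. In WT 10 were higher and 21 lower at day 1, 12 and 23 at day 3 and 15 and 25 at day 7. The shares of all tested probe sets were 24% and 28.9%, 26.1% and 35.7%, and 21.8% and 31.7%. In KO the list counts were 9 and 19, 15 and 25, and 14 and 18. The shares there were 20.9% and 23.7%, 28.2% and 36.7%, and 19.8% and 27.4%. The medians over the list ran from -0.20 to -0.05, beside -0.08 to -0.04 over all probe sets. Between genotypes 0 passed in any comparison or interaction (limma), where the background was at most 0.549%.

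The target genes Myc, Cd44 and Ccnd1, which many other signals also induce, rose at every time. Myc was up by 3.80 ± 0.23 at day 1 in WT (limma, adjusted p = 5.65e-14) and still by 1.96 at day 7, and Cd44, a cell adhesion receptor, by 3.01 ± 0.15 (adjusted p = 1.67e-15) and 2.33. Ccnd1, cyclin D1, was up by 2.09 ± 0.13 at day 1 (adjusted p = 9.15e-14) and by 1.04 at day 7. Axin2 and the member probe set of Nkd1, in contrast, were down at day 1 and day 3 in the same arrays. The second Nkd1 probe set did not pass in WT at either time (-0.37 and -0.16, limma, adjusted p = 0.0566 and 0.441). Prickle1, of the planar polarity branch, fell by 1.24 ± 0.11 at day 1 in WT (adjusted p = 2.14e-10) and stood at 0.15 of sham at day 7 (adjusted p = 0.272). Apcdd1, a membrane inhibitor of Wnt, rose by 1.97 ± 0.21 at day 3 in WT (adjusted p = 8e-09) and 0.99 in KO, and Dact1, a Dishevelled binding protein, rose by 1.54 ± 0.21 at day 7 in WT (adjusted p = 1.07e-06) and 1.04 in KO.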

How the data were processed

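Total RNA from thoracic spinal cord was hybridised to Affymetrix mouse arrays, 1 per sample, with 34 samples in 8 groups taken from the titles. The deposited values are log2 signals, computed with GCRMA per the submitters' processing notes (version and probe annotation not given in the sources used here), and were used as given. The lowest was 2.17 and the highest 15.904, arrays had medians of 4.139 to 4.39, and 33.7% of values lay within 0.1 of the lowest. Array values have no read depth, and the number of arrays limits precision.

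Of 45101 probe sets, the 64 controls were left out and 24573 with log2 4 or more in at least 4 arrays were tested with limma 3.58.1 in R 4.3.3 (lmFit and eBayes, 8 group means, 26 residual degrees of freedom), with Benjamini-Hochberg adjustment over all of them within each comparison and a threshold of 0.05. Errors are standard errors of the fit unless marked SD. Comparisons with 1 sham group share its arrays. The script was tested on simulated data. Gene names came from the platform annotation, in which 34958 probe sets named 1 gene, 932 several and 9211 none, and all 53 members matched the RefSeq table of GRCm38.p6 by Entrez identifier.

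Members and lists were chosen with earlier results of these data known. The text names, for each injured group against sham, the 8 largest changes in each direction among those that passed, 5 for consecutive times, every passing member between genotypes or else the 3 smallest p-values, values by array for the 12 members with the largest F statistic, and 4 pathway genes per WT comparison. Other members are named to account for all 53, after their values were seen, and were not refitted under each alternative. Replicate numbers did not pair arrays: over 113 same-numbered pairs the deviations from group means correlated from -0.454 to 0.43 (median 0.005). Alternatives changed the grouping of the 2 conflicting arrays, the filter, the probe sets, the variance model, array weights, centring, the groups in the fit and single arrays.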

Additional observations from a re-analysis of the deposited data

Results flagged for a closer look

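In 29 of 248 groups looked at (31 named members in 8 groups of 4 or 5 arrays) 1 array stood far from the rest of its group by Dixon's ratio, where chance flags about 1 in 20. Of the 29, 21 were in members with 1 value shared exactly by 5 or more arrays, where a small departure is enough. No interaction between injury and genotype passed, and no data outside the main measurement were held.

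In the members without such a shared value, Wnt4 in day 1 WT replicate 5 was 4.15 (others 5.73 to 5.97). Axin2 in day 1 KO replicate 2 was 5.06 (others 4.52 to 4.56). Sfrp5 in day 3 KO replicate 4 was 5.89 (others 4.99 to 5.22). Tcf7l1 was 7.06 in day 3 WT replicate 2 (others 6.44 to 6.53) and 5.99 in day 1 KO replicate 4 (others 6.39 to 6.45). Dkk3 in sham WT replicate 1 was 8.58, Lrp6 in the same array 7.0, and Fzd3 in day 7 KO replicate 4 10.65, each in a group that spanned at most 0.15.

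In the members with a shared value, Fzd4 was 4.75 in sham KO replicate 1 and 4.58 in day 1 KO replicate 1. Lef1 was 4.82 in sham WT replicate 1, 4.99 in day 1 WT replicate 1, 5.22 in day 7 WT replicate 2 and 5.72 in day 3 KO replicate 4. Nkd2 was 4.14 in sham KO replicate 1. Rspo1 was 3.53 in day 1 WT replicate 4, 4.09 in day 7 WT replicate 1, 3.87 in sham KO replicate 3 and 3.62 in day 1 KO replicate 3. Wnt6 was 4.55 in sham WT replicate 3, 4.91 in day 1 WT replicate 2, 4.89 in day 3 WT replicate 3, 3.81 in day 1 KO replicate 2 and 4.15 in day 3 KO replicate 4. Wnt7b was 4.79 in day 7 WT replicate 2, 4.92 in day 1 KO replicate 2 and 4.19 in day 7 KO replicate 3. Wnt9a was 3.93 in day 1 KO replicate 1 and 4.48 in day 7 KO replicate 4.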

How the results depend on the processing

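For the 133 member results, 2629 of 2810 refits kept the direction and the side of the threshold, 169 lost the call, 12 gained it and 0 reversed. The share of all tested probe sets that passed was not computed for any refit. A change particular to the members thus cannot be told from a general one in the counts below. With the 2 conflicting arrays grouped by source and time, members passing fell to 7 at day 1 against sham in WT, 3 from day 1 to day 3 and 3 from day 3 to day 7. A filter at log2 6, which tests fewer members, gave 10 and 11 at days 1 and 3 in WT, 9 at day 1 in KO and 9 from day 3 to day 7 in KO. Averaging probe sets gave 10 for that last step, and leaving out the 3 arrays of lowest weight (day 3 WT replicate 2, day 3 KO replicates 3 and 4; chosen after seeing the data) gave 9, and 5 from day 3 to day 7 in WT. A fit of only the groups compared gave 5 and 4 for the steps in WT.

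Between genotypes, the day 3 count of 1 (Nkd1) became 0 with the conflicting arrays regrouped or left out, averaged probe sets, a trended robust prior, array weights, centring, a fit of only the groups compared, the 3 low-weight arrays left out, or 3 libraries that stand apart left out (sham KO replicate 2, day 3 KO replicate 3, day 7 WT replicate 4; also chosen after seeing the data). At day 1 the count became 1 (Wif1) with a filter at log2 6, averaged probe sets, the trended robust prior, array weights or the 3 low-weight arrays left out. In sham it became 1 (Fzd9) without a filter or with averaged probe sets and 2 (Fzd9 and Nkd2) with array weights, which also gave 1 interaction at day 1 (Fzd9, 0.66). At day 7 it became 1 without a filter (Dkk2, -0.73, under log2 4 in every array). Leaving out 1 array at a time gave 0 to 1 in sham, at day 1 and at day 3, and 5 to 11 from day 3 to day 7 in WT. The cause of these changes was not tested.

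A replicate block, though the numbers do not pair the arrays (5 of 34 correlated best with their own number), gave 18, 18 and 21 members at days 1, 3 and 7 in WT, 15, 19 and 13 in KO, and 1 between genotypes at day 3, and it ended 3 of 133 member calls. Signal under log2 4 in part of the arrays limits Wif1, Fzd9, Fzd10, Sfrp2, Rspo1, Nkd2 and Wnt9a, and the 19 untested members.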
